A study of Mus musculus with 5 samples.

Results

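The genes described here are 47 ligands and receptors of the fibroblast growth factor (FGF), platelet-derived growth factor (PDGF), vascular endothelial growth factor (VEGF), epidermal growth factor (EGF) and hepatocyte growth factor (HGF) families. They were taken by gene symbol from a table of 54532 mouse genes, and all 47 were found in it. RNA was counted in 5 libraries of adipose-derived stem cells from wild-type mice on chow diet, aged 12 to 14 weeks, with 30 mice sorted in all. Every library came from the stromal vascular fraction of fat after CD31+ and CD45+ cells had been gated out, which takes away endothelial and immune cells, and the remaining cells were sorted on CD26 and CD142. By title, subcutaneous fat (SAT) gave 1 CD26+CD142- and 1 CD26-CD142+ library. Visceral fat (VAT) gave 2 CD26-CD142+ libraries and 1 CD26+CD142+ library. No obese animals and no treated cells are among these groups.

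For SAT libraries 1 and 2 the title and the library name disagree. The first is titled CD26+CD142- and has CD142 in its name, and the second is titled CD26-CD142+ and has CD26 in its name. Dpp4, which encodes CD26, stood at 6.58 CPM (read counts scaled to library size, with TMM factors) in SAT library 1 and 1007 CPM in SAT library 2, and F3, which encodes CD142, at 619 and 5.32 CPM. These levels go against both titles. The libraries are therefore called SAT library 1 and SAT library 2 throughout, and each comparison of gates is given by title and by library name. In VAT title and name do not conflict, although the names of the CD26-CD142+ pair give CD142 alone. Dpp4 was at 5.13 and 6.58 CPM in the VAT CD26-CD142+ pair and 417 CPM in the VAT CD26+CD142+ library. F3 was at 378.6 and 241.5 CPM in the pair and 99.1 CPM in the VAT CD26+CD142+ library. The libraries with high Dpp4 thus had the lowest F3, so a level that goes with high Dpp4 below also goes with low F3.

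FGF, PDGF, VEGF, EGF and HGF are secreted or membrane-bound ligands that bind receptor tyrosine kinases, which pair up, phosphorylate each other and switch on the RAS-ERK and PI3K-AKT relays. In fat, PDGFRα marks stromal progenitors and PDGFRβ marks mural and some progenitor cells, FGF1, FGF2 and FGF10 act on progenitor growth and differentiation, and VEGF-A from stromal and fat cells acts on the endothelium of the vessels around them. A ligand and its receptor are often made by different cells, so the RNA of 1 sorted population shows only the side that this population makes.

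Library totals ran from 21706345 to 25357403 counts, and the 47 genes took between 0.279% and 0.422% of them. Mitochondrially encoded genes took 2.83% and 4.33% of counts in the libraries numbered 1, which are SAT library 1 and VAT CD26-CD142+ library 1, and between 0.554% and 0.633% in the libraries numbered 2. In SAT, gate and library number therefore cannot be told apart. Progenitor markers (8 genes, among them Dcn, Col1a1 and Ly6a) summed to between 24080 and 77440 CPM, and Ptprc, the gene of CD45, stayed at or under 0.989 CPM. Each value is from bulk RNA, in which fewer cells of a type and less RNA per cell cannot be told apart.

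A filter on low counts kept 39 of the 47 genes and 15920 genes in all. It removed Fgf5, Fgf13, Fgf21, Fgfr4, Areg, Ereg, Erbb4 and Nrg1. Of the 47, 27 reached 10 CPM in at least 1 library. Log2 changes come from edgeR's quasi-likelihood test with their standard errors (SE), and p-values were adjusted over all 15920 genes at a threshold of 0.05. The labels do not say that the libraries come from separate animals, so these p-values measure only the spread between these libraries. The contrasts within VAT, against the VAT pair and between depots in the gate change came from a fit of 4 groups. There each single library was assumed to vary like the VAT CD26-CD142+ pair.

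Promoters are shown for 4 genes: Fgf2 and Pdgfc, ligands with the highest ratios of SAT library 2 to SAT library 1 among those at least 2-fold apart, and Fgfr2 and Fgfrl1, receptors called lower in the libraries named for CD26. Each line gives the 250 bases before the RefSeq start on GRCm38.p6, 5′ to 3′, with motif matches in capitals. For Fgf2, Fgfrl1 and Fgfr2 the gene span that came with the counts begins upstream of this window and contains it.
Fgf2, chr3:37348403-37348652, plus strand: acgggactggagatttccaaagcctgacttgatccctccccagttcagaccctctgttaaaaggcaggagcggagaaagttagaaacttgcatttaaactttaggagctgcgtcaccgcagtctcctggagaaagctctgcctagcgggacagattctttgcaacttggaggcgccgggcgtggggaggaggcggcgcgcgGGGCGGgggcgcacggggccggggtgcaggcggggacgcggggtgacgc
Pdgfc, chr3:81036166-81036415, plus strand: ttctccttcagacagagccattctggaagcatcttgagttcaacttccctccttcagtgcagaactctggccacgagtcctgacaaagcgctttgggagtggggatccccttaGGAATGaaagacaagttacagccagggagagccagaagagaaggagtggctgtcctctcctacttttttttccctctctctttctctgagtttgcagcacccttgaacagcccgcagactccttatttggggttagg
Fgfrl1, chr5:108693979-108694228, plus strand: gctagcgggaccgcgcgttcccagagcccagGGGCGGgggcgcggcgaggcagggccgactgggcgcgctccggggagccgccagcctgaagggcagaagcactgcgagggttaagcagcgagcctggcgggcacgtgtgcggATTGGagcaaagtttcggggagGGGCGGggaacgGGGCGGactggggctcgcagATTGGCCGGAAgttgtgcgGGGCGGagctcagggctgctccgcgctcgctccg
Fgfr2, chr7:130266809-130267058, minus strand: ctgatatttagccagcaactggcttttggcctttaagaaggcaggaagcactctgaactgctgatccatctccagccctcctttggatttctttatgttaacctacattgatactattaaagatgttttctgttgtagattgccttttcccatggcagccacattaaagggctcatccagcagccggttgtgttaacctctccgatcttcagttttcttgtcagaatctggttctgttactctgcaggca
The motifs searched on both strands were the GC box (GGGCGG), the TATA box (TATAAA), the CCAAT box (CCAAT), AP-1 (TGANTCA), TEAD (GGAATG) and ETS (CCGGAA). Fgf2 holds 1 GC box in a window of 62.4% G and C, and Pdgfc holds 1 TEAD match at 50.8%. The Fgfrl1 window, at 73.6%, holds 4 GC boxes, 2 CCAAT boxes and 1 ETS match, the last of which adjoins a CCAAT box. Fgfr2, at 44.0%, holds none of the 6 motifs. Among 32851 RefSeq windows of this length, whose median G and C content was 52.4%, a GC box was found in 32.7%, a TATA box in 12.4%, a CCAAT box in 33.8%, AP-1 in 6.7%, TEAD in 12.6% and ETS in 12.0%. These are matches of letters, and no binding was measured. RefSeq windows were matched for 36 of the 47 genes.

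Read as TPM, which scales counts by gene length and library size so that genes can be compared, the receptors of these progenitors were led by Pdgfra, with a mean of 290 TPM over the 5 libraries (177.7 to 403.4), Egfr at 216 TPM (150.1 to 295.9), Fgfr1 at 180 TPM (99.6 to 289.7) and Pdgfrb at 158 TPM (86.5 to 280.8). The ranges of these 4 receptors overlap, so their order is not resolved by 5 libraries. The next level was that of Pdgfrl at 44.5, Fgfrl1 at 34.8, Nrp1 at 30.1 and Erbb2 at 15.9 TPM. Fgfr2 (6.56), Nrp2 (5.63) and Met (4.06) followed, and Erbb3, Kdr, Flt1 and Fgfr3 had means of 1.94 TPM or less. Among ligands, Vegfd (191 TPM) and Vegfa (136 TPM) had the highest means, with overlapping ranges, before Fgf7 (62.9), Fgf18 (53.7), Fgf2 (44.6), Vegfc (40.6) and Pdgfd (36.5). Summed by family, FGF ligands ran from 126.7 to 316.9 TPM and PDGF ligands from 29.5 to 95.8 TPM. EGF family ligands ran from only 12.4 to 24.3 TPM, although the receptors of that family summed to between 165.0 and 311.3 TPM.

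**Figure D1:**
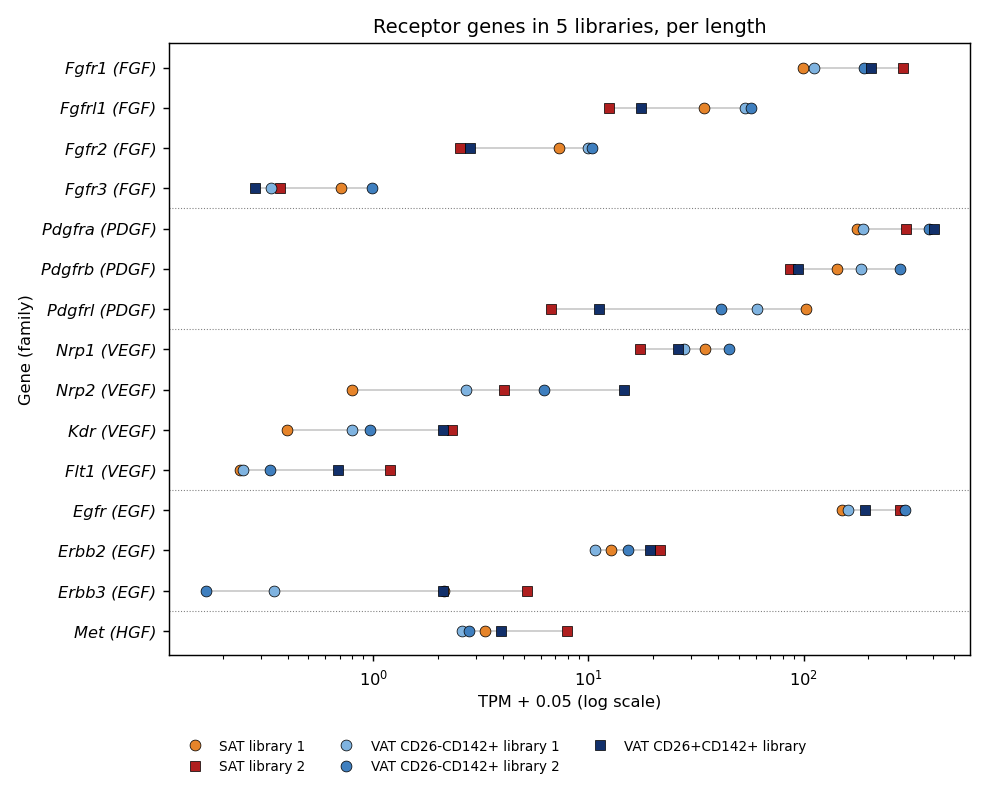
TPM + 0.05 of 15 receptor genes (log axis), 1 point per library, coloured by library and grouped by family; squares are the libraries named for CD26 and circles the other 3. Pdgfra, Egfr, Fgfr1 and Pdgfrb lie at the right, and in Fgfr2, Fgfrl1, Pdgfrb and Pdgfrl both squares lie left of every circle.

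Fgf2, a broadly acting FGF made by mesenchymal cells, was high in the libraries with high Dpp4. It stood at 19.3 CPM (95% counting interval 17.6 to 21.2) in SAT library 1 and 209 CPM (203 to 215) in SAT library 2, at 36.8 and 58.6 CPM in the VAT CD26-CD142+ pair, and at 128 CPM in the VAT CD26+CD142+ library. The libraries with high Dpp4 were the highest in each depot, and SAT library 1 was the lowest of all. Against the VAT CD26-CD142+ pair (47.7 ± 15.4 CPM, SD, n = 2), SAT library 2 was higher by 2.13 on the log2 scale (SE 0.47, adjusted p = 0.0093292). The VAT CD26+CD142+ library had a log2 change of 1.42 (SE 0.47) that did not pass (adjusted p = 0.22855). In SAT the ratio of library 2 to library 1 was 10.8 (9.82 to 11.9, counting error only). Fgf2 lies on chromosome 3 (mm10 chr3:37348346-37410108, plus strand) and overlaps Nudt6 on the other strand, which had 312 counts over all libraries against 10357 for Fgf2.

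Fgf18, an FGF of the skeletal and lung mesenchyme, was also highest in each depot where Dpp4 was high. It was at 16.3 and 43.0 CPM in SAT libraries 1 and 2, 5.55 and 11.4 CPM in the VAT CD26-CD142+ pair and 21.9 CPM in the VAT CD26+CD142+ library. SAT library 2 was above the VAT pair by 2.35 (SE 0.51, adjusted p = 0.0086065). Fgf16, an FGF9-like ligand, was scarce, with 4.33 CPM in SAT library 2 and 9.31 CPM in the VAT CD26+CD142+ library. The other 3 libraries had 0.275 to 0.952 CPM. Relative to the VAT CD26-CD142+ pair it rose by 4.25 (SE 0.79, adjusted p = 0.010459) in the VAT CD26+CD142+ library and by 3.15 (SE 0.78, adjusted p = 0.020772) in SAT library 2. Without VAT CD26-CD142+ library 2, which leaves no test, these changes were 5.06 and 3.95, and that of Fgf18 was 2.95. Without VAT CD26-CD142+ library 1, again with no test, they were smaller, at 3.75 and 2.64 for Fgf16 and 1.92 for Fgf18.

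Fgf7 and Fgf10, mesenchymal ligands of the epithelial splice form of FGFR2, ran the other way in SAT. Fgf7 was at 153 and 65.9 CPM in SAT libraries 1 and 2, 73.0 and 41.4 CPM in the VAT CD26-CD142+ pair and 18.4 CPM in the VAT CD26+CD142+ library. Fgf10 was at 67.7 and 17.5 CPM in SAT libraries 1 and 2, 53.9 and 47.2 CPM in the VAT pair and 23.8 CPM in the VAT CD26+CD142+ library. For Fgf10 both libraries named for CD26 lay below the other 3, whereas for Fgf7 SAT library 2 lay within the range of the VAT pair. Neither gene passed in VAT (Fgf7 -1.64, SE 0.55, adjusted p = 0.23191; Fgf10 -1.09, SE 0.50, adjusted p = 0.57326). SAT library 1 exceeded SAT library 2 by 2.32-fold (2.18 to 2.46) for Fgf7 and 3.88-fold (3.47 to 4.34) for Fgf10.

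Fgf1, an FGF without a signal peptide that binds all FGF receptors, was high in 1 library. It was at 6.06 and 2.21 CPM in SAT libraries 1 and 2, at 5.13 and 8.30 CPM in the VAT CD26-CD142+ pair while the VAT CD26+CD142+ library reached 76.0 CPM (72.6 to 79.6). All other libraries stayed at 8.30 CPM or less. The rise within VAT was 3.50 (SE 0.49, adjusted p = 0.0015689), and in SAT the library with high Dpp4 was the lower one (ratio of library 2 to library 1 0.365, 0.258 to 0.509). Fgf9 also had its highest level, 1.98 CPM, in the VAT CD26+CD142+ library, against at most 0.451 CPM elsewhere, without passing (4.39, SE 1.37, adjusted p = 0.18383). The sum of the 9 mesothelial markers was, like Fgf1, Fgf9 and Fgf16, highest in that library, at 356 CPM. It was 115 and 170 CPM in the VAT CD26-CD142+ pair and 82.0 and 4.56 CPM in SAT libraries 1 and 2. Wt1 gave 113 and 154 CPM of the sum in the pair and did not rise in the VAT CD26+CD142+ library (112 CPM). Krt19 gave 63.7 CPM of the sum in SAT library 1, where Wt1 was at 0. In the VAT gate comparison 3 of 9 rose (Msln, Krt7 and Gpm6a). Msln stood at 38.5 CPM in the VAT CD26+CD142+ library, 0.779 and 2.41 CPM in the VAT pair and 0 in both SAT libraries. The part of these markers in the levels of Fgf1, Fgf9 and Fgf16 was not tested.

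Fgf11, an intracellular FGF homologous factor that binds sodium channels and no FGF receptor, ranged from 5.69 to 13.2 CPM. Its values were 10.9 and 12.4 CPM in SAT libraries 1 and 2, 13.2 and 7.87 CPM in the VAT pair and 5.69 CPM in the VAT CD26+CD142+ library, and it passed no test. Fgf14, of the same group, lay between 0.596 and 2.25 CPM. Fgf13, also of that group, had 34 counts and 1 count in SAT libraries 1 and 2 and 0 in VAT, so its signal rests on SAT library 1 alone. The 7 epithelial markers, led by Krt18 (46.7 CPM) and Krt8 (45.8 CPM), summed to 144 CPM in SAT library 1, 13.2 CPM in the VAT CD26+CD142+ library and at most 1.33 CPM elsewhere, and Csn3 was at 0 in all libraries but SAT library 1; their part in the Fgf13 counts was not tested. Fgf21, an endocrine FGF of liver and fat, had 1 to 18 counts per library, and Fgf5 had none.

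**Figure D2:**
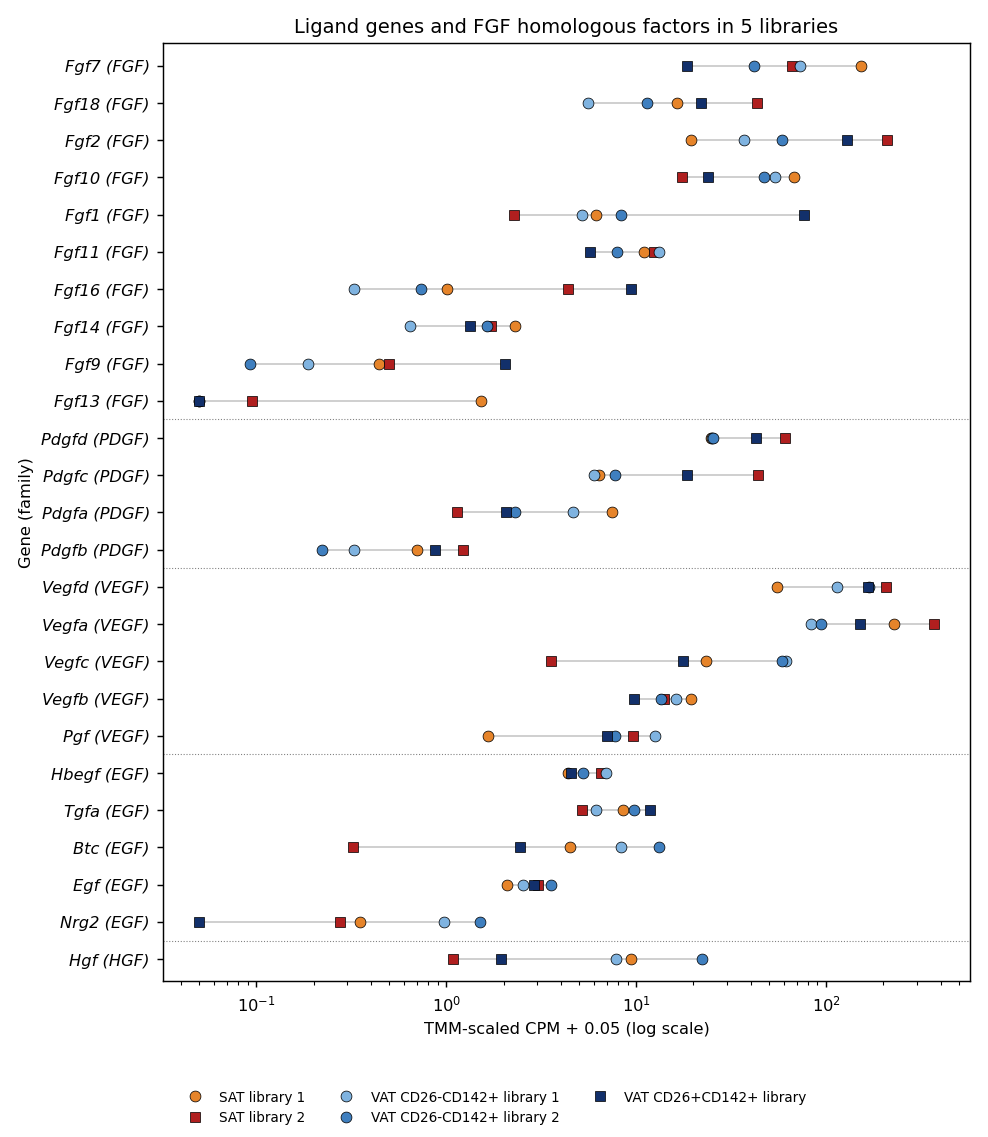
TMM-scaled CPM + 0.05 (log axis) of 25 ligand genes and FGF homologous factors, 1 point per library, grouped by family; squares are the libraries named for CD26. Fgf2, Fgf18, Pdgfc and Pdgfd have both squares to the right of every circle, and Fgf10, Vegfc, Btc and Hgf have both to the left.

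Among FGF receptors, Fgfr1, the main FGF receptor of mesenchyme, was abundant in every library. It was at 379 and 852 CPM in SAT libraries 1 and 2, 399 and 576 CPM in the VAT CD26-CD142+ pair and 558 CPM in the VAT CD26+CD142+ library, and it passed no test. Fgfr2, the receptor that binds FGF7 and FGF10 in its epithelial form, was at 29.0 CPM (26.8 to 31.3) in SAT library 1 and 7.62 CPM (6.52 to 8.86) in SAT library 2, and at 36.9 and 32.9 CPM in the VAT pair. The VAT CD26+CD142+ library had 7.79 CPM (6.72 to 8.98) of it. Fgfrl1, a decoy-like FGF receptor without a kinase domain, was at 37.0 and 10.2 CPM in SAT, 53.5 and 48.4 CPM in the VAT pair and 13.3 CPM in the VAT CD26+CD142+ library. In both genes the libraries with high Dpp4 lay below all others.

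Both receptors fell in the libraries named for CD26 when the depots were fitted together, Fgfr2 by 2.06 (SE 0.24, adjusted p = 0.049339) and Fgfrl1 by 1.90 (SE 0.23, adjusted p = 0.049933). These calls sit at the threshold. Fgfr2 and Fgfrl1 lost their calls without VAT CD26-CD142+ library 1 (adjusted p = 0.050844 and 0.055102). Both also lost them without the VAT CD26+CD142+ library, and Fgfrl1 without SAT library 2. Fits without the VAT CD26+CD142+ library or without a SAT library hold the gate contrast of a single depot and do not test the change over both. Within VAT alone the changes were -2.16 (SE 0.53, adjusted p = 0.055091) for Fgfr2 and -1.94 (SE 0.52, adjusted p = 0.094837) for Fgfrl1. SAT library 2 was below the VAT CD26-CD142+ pair for Fgfr2 (-2.19, SE 0.53, adjusted p = 0.017666) and Fgfrl1 (-2.31, SE 0.54, adjusted p = 0.013489). The VAT libraries numbered 2 had mitochondrial shares of 0.633% and 0.62%. Fgfr2 was at 32.9 CPM in the CD26-CD142+ and 7.79 CPM in the CD26+CD142+ library of these. That sets a single library against another, and the part of library number in the Fgfr2 and Fgfrl1 levels was not tested.

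The span of Fgfr2 in the table (mm10 chr7:130162451-133123350, minus strand) covers 20 other genes with at least 100 counts. In GENCODE M21, 1 of 27 Fgfr2 transcripts reaches that end, and the other 26 end by position 130266263. How reads shared with those genes were counted is not given in the sources used here. Fgfrl1 lies at chr5:108692382-108706924 on the plus strand. Fgfr3 lay between 0.453 and 2.06 CPM. Fgfr4 had 9 counts, all in the VAT CD26-CD142+ pair.

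Pdgfc and Pdgfd, PDGF ligands that are secreted with an inhibitory CUB domain and cut open by proteases, had the highest mean TPM of the PDGF ligands, although Pdgfa exceeded Pdgfc in SAT library 1. Pdgfc was at 6.32 CPM (5.33 to 7.43) in SAT library 1 and 43.7 CPM (41.0 to 46.5) in SAT library 2, 5.91 and 7.70 CPM in the VAT CD26-CD142+ pair and 18.4 CPM in the VAT CD26+CD142+ library. SAT library 2 exceeded the VAT pair (6.81 ± 1.26 CPM, SD, n = 2) by 2.68 (SE 0.47, adjusted p = 0.0017526), and the change within VAT was 1.44 (SE 0.48, adjusted p = 0.22855). Pdgfd was at 24.8 and 61.0 CPM in SAT libraries 1 and 2, 25.1 and 25.2 CPM in the VAT pair and 42.5 CPM in the VAT CD26+CD142+ library. Both genes were highest where Dpp4 was high. Pdgfd passed no test (SAT library 2 against the VAT pair 1.28, SE 0.46, adjusted p = 0.14017). Pdgfa, the classical ligand of PDGFRα, ranged from 1.08 to 7.44 CPM and was lowest in SAT library 2, and Pdgfb, a ligand of both receptors, ranged from 0.172 to 1.17 CPM. Pdgfa had 397 counts in all and an antisense partner, 6330403L08Rik, 211.

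Pdgfra, the receptor that marks fibroblast-like progenitors, was at 687 and 892 CPM in SAT libraries 1 and 2, 682 and 1173 CPM in the VAT CD26-CD142+ pair and 1108 CPM in the VAT CD26+CD142+ library. The VAT pair (928 ± 347 CPM, SD, n = 2) spanned the other 3 libraries, and no test passed. Pdgfrb was at 302 and 141 CPM in SAT libraries 1 and 2, 364 and 472 CPM in the VAT pair and 141.5 CPM in the VAT CD26+CD142+ library. Both libraries with high Dpp4 lay below all others, at nearly the same level. Its change by library name was -1.36 (SE 0.29) and did not pass (adjusted p = 0.12969). The 9 mural markers summed to 152 and 55.3 CPM in SAT libraries 1 and 2, 209 and 222 CPM in the VAT pair and 119 CPM in the VAT CD26+CD142+ library, the same order by gate, with 2 of 9 lower in the VAT gate comparison (Abcc9 and Myh11). The members did not all run this way. Rgs5 was at 2.34 and 4.06 CPM in SAT libraries 1 and 2, 2.06 and 1.38 CPM in the VAT pair and 2.60 CPM in the VAT CD26+CD142+ library. Des was higher in SAT library 2 (14.4 CPM) than in SAT library 1 (3.20 CPM). Abcc9 alone gave 98.2 CPM of the sum in SAT library 1. The part of mural cells in the Pdgfrb level was not tested.

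Pdgfrl, which encodes a secreted PDGF receptor-like protein, was low where Dpp4 was high. It was at 124 CPM (119 to 128) in SAT library 1 and 6.22 CPM (5.23 to 7.35) in SAT library 2, 68.4 and 39.6 CPM in the VAT CD26-CD142+ pair and 9.56 CPM in the VAT CD26+CD142+ library. The libraries with high Dpp4 lay below the rest in both depots. It fell by 2.50 within VAT (SE 0.58, adjusted p = 0.038821), and SAT library 2 had a log2 change of -3.12 against the VAT pair (SE 0.60, adjusted p = 0.0035911). SAT library 1 exceeded SAT library 2 by 19.9-fold (16.8 to 23.8). By library name the change over both depots was -3.23 (SE 0.56, adjusted p = 0.097487).

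Of the VEGF ligands, Vegfa, the main angiogenic member, was the only one of the 5 with every SAT library above every VAT library. It was at 227 and 368 CPM in SAT libraries 1 and 2, 83.4 and 94.3 CPM in the VAT CD26-CD142+ pair and 150 CPM in the VAT CD26+CD142+ library. The difference between SAT (298 ± 100 CPM, SD, n = 2) and VAT (109 ± 35.7 CPM, SD, n = 3) was 1.45 (SE 0.38), which did not pass over all genes (adjusted p = 0.47942). SAT library 2 alone exceeded the VAT CD26-CD142+ pair by 2.05 (SE 0.47, adjusted p = 0.011705). Vegfd, a ligand of the lymphatic receptor VEGFR3, was at 55.1 and 206 CPM in SAT libraries 1 and 2, 114 and 168 CPM in the VAT pair and 166 CPM in the VAT CD26+CD142+ library. SAT library 1 was the low library, and the VAT CD26+CD142+ library lay within the VAT pair.

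Vegfc, the other lymphatic ligand, was lower in SAT library 2 than in SAT library 1. It was at 23.3 and 3.52 CPM in SAT libraries 1 and 2, 61.5 and 58.3 CPM in the VAT CD26-CD142+ pair (59.9 ± 2.26 CPM, SD, n = 2) and 17.6 CPM in the VAT CD26+CD142+ library. SAT library 2 had a log2 change of -4.09 against the VAT pair (SE 0.60, adjusted p = 3.82e-04), the smallest adjusted p of the 39 tested genes in that comparison. Within VAT the change of -1.77 (SE 0.52) did not pass (adjusted p = 0.13597). Vegfb, a ligand of VEGFR1, was at 19.4 and 13.9 CPM in SAT libraries 1 and 2, 16.2 and 13.4 CPM in the VAT pair and 9.65 CPM in the VAT CD26+CD142+ library. Pgf, placental growth factor, was at 1.60 and 9.61 CPM in SAT libraries 1 and 2, 12.5 and 7.66 CPM in the VAT pair and 6.97 CPM in the VAT CD26+CD142+ library. SAT library 1 was the low library for Pgf, and its difference from the VAT pair missed the threshold (-2.65, SE 0.69, adjusted p = 0.063793).

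The VEGF receptor kinases were scarce. Flt1 (VEGFR1) lay between 0.963 and 4.60 CPM and Kdr (VEGFR2) between 1.21 and 6.13 CPM, with both libraries named for CD26 the highest for each gene. Endothelial markers were low except for Tek, the angiopoietin receptor, which was at 19.9 and 290.4 CPM in SAT libraries 1 and 2, 58.9 and 66.7 CPM in the VAT pair and 286 CPM in the VAT CD26+CD142+ library; the sum of all 8 markers ran from 37.2 to 318 CPM. Pecam1, the gene of CD31, was at 2.32 to 7.26 CPM and Cdh5 at 1.16 to 5.55 CPM. These 2 were highest in SAT library 2, as were Tek, Tie1 (4.24 CPM) and Cldn5 (3.16 CPM). Emcn and Egfl7 were highest in SAT library 1 (1.43 and 3.07 CPM) and Esam in the VAT CD26+CD142+ library (5.93 CPM). The part of endothelial RNA in Flt1 and Kdr was not tested. Nrp1, a co-receptor for VEGF and semaphorins, was at 131 and 50.4 CPM in SAT libraries 1 and 2, 97.9 and 134 CPM in the VAT pair and 69.4 CPM in the VAT CD26+CD142+ library. Nrp2, its relative on lymphatic endothelium, was at 3.42 and 14.1 CPM in SAT libraries 1 and 2, 11.3 and 22.5 CPM in the VAT pair and 47.3 CPM in the VAT CD26+CD142+ library. Within each depot the co-receptors ran in opposite directions, Nrp1 lower and Nrp2 higher where Dpp4 was high, and neither passed within VAT (Nrp1 -0.74, SE 0.49, adjusted p = 0.97827; Nrp2 1.48, SE 0.50, adjusted p = 0.24719).

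In the EGF family, Egfr was at 656 and 950 CPM in SAT libraries 1 and 2, 655 and 1029 CPM in the VAT CD26-CD142+ pair and 598 CPM in the VAT CD26+CD142+ library. The VAT pair alone spans nearly the whole range, and no test passed. Erbb2, which has no ligand of its own and pairs with the other receptors, was at 25.5 and 33.2 CPM in SAT, 20.1 and 24.3 CPM in the VAT pair and 27.6 CPM in the VAT CD26+CD142+ library. Erbb3, the kinase-impaired neuregulin receptor, was scarcer, with 4.85 and 9.25 CPM in SAT libraries 1 and 2, 0.642 and 0.215 CPM in the VAT pair and 3.38 CPM in the VAT CD26+CD142+ library. Relative to the VAT pair, Erbb3 rose by 3.49 in SAT library 1 (SE 0.78, adjusted p = 0.023415) and by 4.42 in SAT library 2 (SE 0.78, adjusted p = 0.0018374). It was the 1 gene of the 39 that passed against the VAT pair in both SAT libraries; these contrasts share the VAT pair, and limma-voom did not call it in SAT library 1 (adjusted p = 0.080967). Without VAT CD26-CD142+ library 1, which leaves no test, its changes were 4.47 and 5.39. Without VAT CD26-CD142+ library 2, again with no test, they were smaller, at 2.90 and 3.84. Schwann cells also express Erbb3, and the 5 Schwann markers summed to 40.8 and 54.9 CPM in SAT, 11.6 and 10.9 CPM in the VAT pair and 12.6 CPM in the VAT CD26+CD142+ library. Mbp gave 51.1 CPM of the sum in SAT library 2, Sox10 was at 0 in every library but SAT library 1 (0.779 CPM), and their part in the Erbb3 level was not tested.

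Betacellulin, encoded by Btc, is a ligand of EGFR and ERBB4. It was at 4.41 CPM in SAT library 1 and 0.271 CPM (0.0993 to 0.589, 6 counts) in SAT library 2, 8.30 and 13.1 CPM in the VAT pair and 2.39 CPM in the VAT CD26+CD142+ library. SAT library 2 had a log2 change of -5.28 against the VAT pair (SE 0.90, adjusted p = 0.0013781), and the change within VAT was -2.16 (SE 0.71, adjusted p = 0.2259). Tgfa was at 8.44 and 5.14 CPM in SAT libraries 1 and 2, 6.10 and 9.72 CPM in the VAT pair and 11.8 CPM in the VAT CD26+CD142+ library, with no test passed. Hbegf (4.33 to 6.88 CPM) and Egf (2.03 to 3.53 CPM) varied less. Areg, the gene of amphiregulin, had 10 counts in SAT library 1, 11 in the VAT CD26+CD142+ library and 0 in the other 3. Ereg had 1 to 13 counts per library and Nrg1 at most 9, and Erbb4, a neuregulin receptor, had 2 counts in all. Nrg2 had 20 and 34 counts in the VAT CD26-CD142+ pair and 0 in the VAT CD26+CD142+ library, at least 9.69-fold lower against a floor of 3 counts in that library, and did not pass (adjusted p = 0.20717).

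Hgf, a mesenchymal ligand, and Met, its receptor, differed in opposite directions in SAT. Hgf was at 9.30 and 1.04 CPM in SAT libraries 1 and 2, 7.75 and 22.1 CPM in the VAT CD26-CD142+ pair and 1.90 CPM in the VAT CD26+CD142+ library. The libraries with high Dpp4 lay lowest in both depots, and the VAT pair differed widely within itself (14.9 ± 10.1 CPM, SD, n = 2). SAT library 2 had a log2 change of -3.84 against the VAT pair (SE 0.83, adjusted p = 0.011026), and the change within VAT was -2.97 (SE 0.78, adjusted p = 0.094837). Without VAT CD26-CD142+ library 2, which leaves no test, the change in SAT library 2 was -2.90. Met was at 9.65 and 18.1 CPM in SAT libraries 1 and 2, 7.06 and 6.45 CPM in the VAT pair and 8.12 CPM in the VAT CD26+CD142+ library. Both SAT libraries lay above all VAT libraries, by 0.94 over all gates (SE 0.35), which did not pass (adjusted p = 0.69534).

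Counted over the 39 tested genes, the gate comparison within VAT called 2 higher in the CD26+CD142+ library, Fgf1 and Fgf16 (0.898% of all genes were called higher), and 1 lower, Pdgfrl (0.697%). SAT library 2 against the VAT CD26-CD142+ pair called 6 higher (Erbb3, Fgf16, Fgf18, Fgf2, Pdgfc and Vegfa; 2.8% of all genes) and 6 lower (Btc, Fgfr2, Fgfrl1, Hgf, Pdgfrl and Vegfc; 3.68%). SAT library 1 against the same pair called 1 higher, Erbb3 (1.36%), and 0 lower (0.992%); 9 of the 39 genes had an unadjusted p under 0.05 there, and DESeq2 called 3 and limma-voom 0. The medians of the 39 log2 changes were 0.20 within VAT, 0.11 for SAT library 2 and -0.09 for SAT library 1, against -0.03, -0.03 and -0.04 over all genes.

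Fitted over both depots, the CD26 gate by title called 0 of the 39 genes in either direction, as it called 0% of all genes higher and 0% lower. At an unadjusted p under 0.05 it held 1 of the 39 and 140 of all genes, and DESeq2 called 16 genes, Fgf1 among them, and limma-voom 0. By library name it called 0 higher (0.32% of all genes) and 2 lower, Fgfr2 and Fgfrl1 (0.276%), with 20 of the 39 at an unadjusted p under 0.05 against 2551 of 15920 genes. By library name 10 genes had both CD26-named libraries above the other 3 (Erbb2, Fgf16, Fgf18, Fgf2, Fgf9, Flt1, Kdr, Pdgfb, Pdgfc and Pdgfd; 16.8% of all genes), and 12 had both below (Btc, Fgf10, Fgfr2, Fgfr3, Fgfrl1, Hgf, Nrg2, Nrp1, Pdgfa, Pdgfrb, Pdgfrl and Vegfc; 17.3%). By title Hbegf and Pgf alone had both libraries on 1 side (6.97%).

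The gate difference itself was compared between depots. The gates are not alike in CD142: the VAT CD26+ library is CD142+ by its title, the SAT CD26+ title is CD142-, and the name of SAT library 2 gives no CD142 status, so CD26 and CD142 cannot be told apart in this difference. By title 8 genes had a more positive CD26 change in SAT than in VAT (Btc, Fgf10, Fgf7, Fgfr2, Fgfrl1, Hgf, Pdgfrl and Vegfc; 3.89% of all genes) and 4 a more negative one (Fgf16, Fgf2, Nrp2 and Pdgfc; 2.73%). By library name 0 were more positive (0.0377%) and 1, Fgf1, was more negative (0.214%), with a difference of -4.95 (SE 0.81, adjusted p = 0.012753). Which reading of the SAT labels is used thus moved the count from 12 genes to 1.

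Between the SAT libraries there is no replicate and no test. SAT library 2 was at least 2-fold above SAT library 1, with 10 CPM in the higher library, for 7 genes (Fgf18, Fgf2, Fgfr1, Nrp2, Pdgfc, Pdgfd and Vegfd; 7.16% of all genes), and SAT library 1 was above SAT library 2 for 8 (Fgf10, Fgf7, Fgfr2, Fgfrl1, Nrp1, Pdgfrb, Pdgfrl and Vegfc; 7.2%). All 15 had the same sign in the VAT gate comparison, which shares no library with the SAT pair, against 2096 of 2287 genes (91.6%) that were as far apart in SAT. For 13 of the 15 the VAT CD26+CD142+ library also lay outside the VAT pair on that side, against 70.9% of the 2287. The exceptions were Fgfr1 and Vegfd. Over all 39 genes 31 had the same sign, or 79.5%, against 73.7% of all genes. SAT library 2 and the VAT CD26+CD142+ library are both numbered 2, and SAT library 1 and VAT CD26-CD142+ library 1 are numbered 1. Library number therefore runs partly the same way in both comparisons, and its part in the shared signs was not tested.

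**Figure D3:**
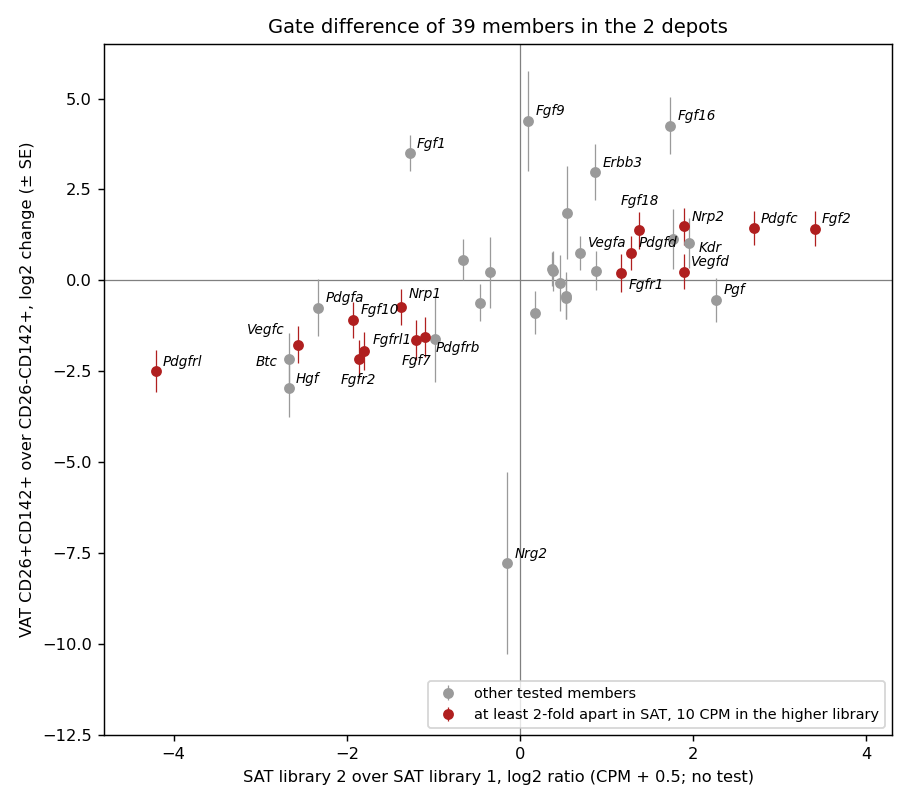
Log2 ratio of SAT library 2 to SAT library 1 (CPM + 0.5, no replicates) against the fitted log2 change of the VAT CD26+CD142+ library over the VAT CD26-CD142+ pair (bars are SE) for 39 genes; red points are at least 2-fold apart in SAT with 10 CPM in the higher library. Red points lie in the upper right and lower left, Fgf1 lies in the upper left, and Nrg2 is a fit against 0 counts.

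Between depots over all gates, 0 of the 39 genes passed, where 0.0503% of all genes did (8 of 15920). Depot was the only term of this fit, so differences between gates within a depot counted as spread. The depots also hold unlike gates, so 0 calls do not show equal levels in SAT and VAT. At an unadjusted p under 0.05 there were 2 of the 39, Vegfa and Met, and 1076 of all genes. DESeq2 called 465 genes with 1 of the 39, Vegfa, and limma-voom called 0. Every SAT library lay above every VAT library for 4 genes, Erbb3, Fgf14, Met and Vegfa (9.64% of all genes), and below for 0 (10.2%). The median change of the 39 genes was 0.08, against 0.01 over all genes.

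**Figure D4:**
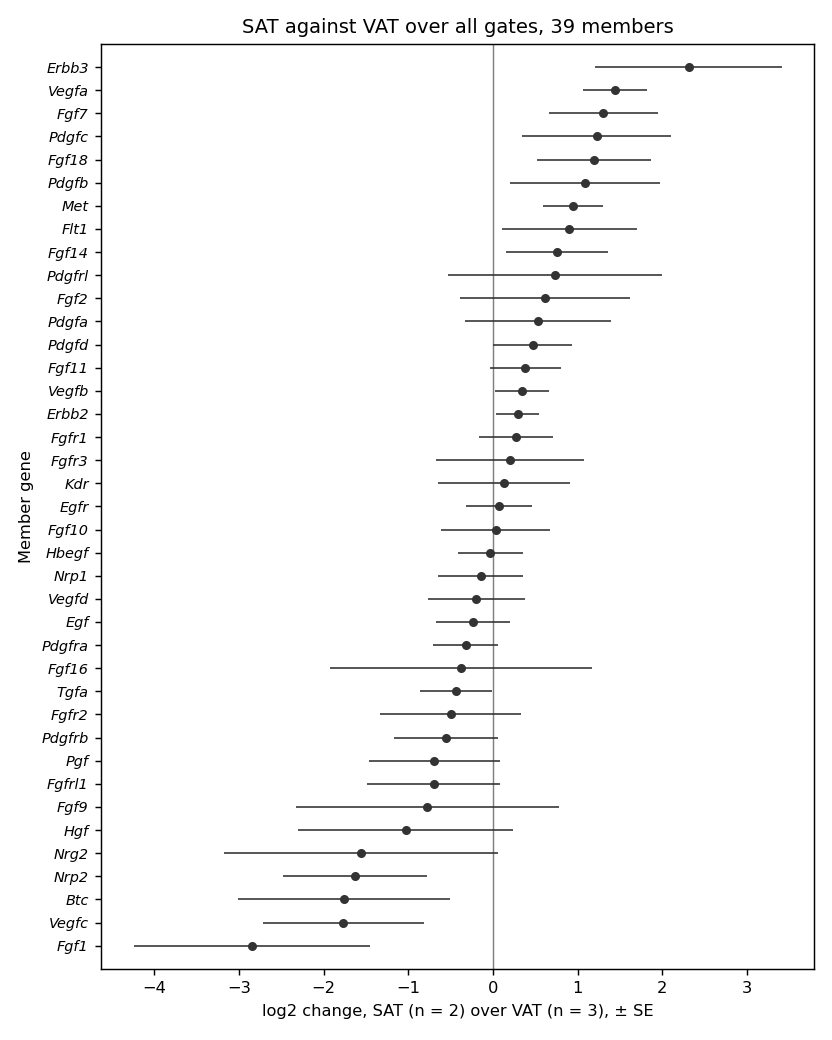
Fitted log2 change of SAT (2 libraries) over VAT (3 libraries) with SE for the 39 tested genes, ordered by change. Vegfa stands at 1.45, Erbb3 at 2.31 and Fgf1 at -2.85, and none of the 39 passed the adjusted threshold.

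Downstream of the receptors, 21 feedback and target genes of RAS-ERK were counted, which ERK activity induces and which in part restrain it. In SAT library 2 against the VAT CD26-CD142+ pair 0 rose (2.8% of all genes) and 5 fell (3.68% of all genes): Spry4, Spry1 and Dusp6, inhibitors of the pathway, and Etv4 and Etv1, ETS factors induced by FGF. Spry4 stood at 42.9 and 3.07 CPM in SAT libraries 1 and 2, 72.5 and 65.5 CPM in the VAT pair and 15.2 CPM in the VAT CD26+CD142+ library (SAT library 2 against the pair -4.49, SE 0.62, adjusted p = 2.37e-04). Etv4 was at 3.72 and 0.226 CPM in SAT, 11.1 and 10.7 CPM in the VAT pair and 2.47 CPM in the VAT CD26+CD142+ library (-5.56, SE 0.90, adjusted p = 8.80e-04). The other 3 had log2 changes of -2.82 (Spry1), -2.73 (Dusp6) and -2.91 (Etv1). All 5 were lower in the library with high Dpp4 in each depot, and within VAT none passed (Spry4 -2.18, SE 0.53, adjusted p = 0.054934). The same 5 passed in the gate by depot comparison by title, and 0 of 21 passed in the other 6 comparisons. The median of the list was -0.68 in SAT library 2, against -0.03 over all genes. The fall was not shared by the whole list. Errfi1 was at 1099 and 2399 CPM and Spred1 at 86.0 and 143.5 CPM in SAT libraries 1 and 2. Egr1 and Fos, the highest of the list by mean CPM over the libraries, are also induced by tissue dissociation; Egr1 was at 2696 to 5493 CPM and Fos at 1866 to 4980 CPM.

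Among 31 cofactors, sheddases and activating proteases, 27 passed the filter on low counts. Sdc1, a heparan sulfate co-receptor for FGF, was at 54.3 and 8.71 CPM in SAT libraries 1 and 2, 45.7 and 37.6 CPM in the VAT pair and 6.64 CPM in the VAT CD26+CD142+ library. It fell within VAT (log2 change -2.65, SE 0.55, adjusted p = 0.020909), by library name (-2.65, SE 0.25, adjusted p = 0.038114) and in SAT library 2 against the VAT pair (-2.26, SE 0.54, adjusted p = 0.015854). Rhbdf2, a partner of the sheddase ADAM17, also fell in SAT library 2 (-3.17, SE 0.75, adjusted p = 0.015539). In SAT library 1 against the VAT pair Spint1 and Spint2, inhibitors of the HGF-activating proteases, rose; Spint2 was at 17.4 CPM there and at most 1.57 CPM elsewhere, and Spint1 at 2.42 CPM against 0 in the VAT pair. These are also epithelial genes, and the epithelial marker sum of 144 CPM in that library was given above; its part was not tested. By title 8 of the 27 differed between depots in the gate change (Plat, Sulf1, Sulf2, Gpc6, Sdc1, Rhbdf2, Gpc1 and St14), 4 in each direction, where 3.89% of all genes were called higher and 2.73% lower. By library name 0 did, where 0.0377% and 0.214% of all genes were called. Sulf1, an enzyme that trims heparan sulfate, was at 85.9 and 421.5 CPM in SAT libraries 1 and 2, 112 and 192 CPM in the VAT pair and 433.5 CPM in the VAT CD26+CD142+ library.

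Of 28 genes of the cytoplasmic relay that serves the receptor kinases, edgeR called 0 in each of the 8 comparisons, where the shares of all genes called in 1 direction ran from 0% to 3.89%. Mapk3, a kinase of this relay, was at 85.7 to 232 CPM. Of 27 related ligands and receptors, 13 passed the filter. Tek rose within VAT (2.19, SE 0.46, adjusted p = 0.021735) and in SAT library 2 against the VAT pair (2.21, SE 0.46, adjusted p = 0.0062452). Angpt2, a ligand of Tek, was at 27.5 CPM in SAT library 1 and at most 2.80 CPM elsewhere and rose against the VAT pair (3.59, SE 0.60, adjusted p = 0.0031705). Csf1r, the macrophage growth factor receptor, rose there too (2.71, SE 0.63, adjusted p = 0.029703), at 13.8 CPM. The 7 macrophage markers, Csf1r among them, summed to 56.6 CPM in that library and 24.5 to 38.5 CPM in the others. Csf1r itself gave 13.8 CPM and Cd14 23.45 CPM of the sum there. Cd68, Lyz2 and C1qa were at 10.1, 6.19 and 2.29 CPM there, below VAT CD26-CD142+ library 1 (19.0, 6.42 and 2.57 CPM). The part of these markers was not tested. Tek, Angpt2 and Mst1r, the receptor of an HGF-like ligand, differed between depots in the gate change by title, and 0 of 13 by library name.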

How the data were processed

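RNA was sequenced from poly(A)-selected libraries of 5 sorted populations, grouped by title. The authors deposited raw read counts per gene and a gene length in bases, another unit, and per the submitters' processing notes the tools were HISAT2 2.0.5, featureCounts 1.5.0-p3 and CASAVA, on mm10; strandedness and the annotation release are not given in the sources used here. Low counts were filtered with filterByExpr (minimum 10, by depot; 15920 genes kept, 38612 removed), scaled by TMM and tested with edgeR 4.0.16 quasi-likelihood F tests, robust, in R 4.3.3, adjusted by Benjamini-Hochberg across the 15920 genes with a threshold of 0.05. SE is the log2 change over the root of F. Depot was tested alone, the CD26 gate with depot as a term, and the other contrasts in a fit of 4 groups. The scripts were tested on simulated data with known fold changes.

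Counting intervals are exact Poisson or exact conditional at 95% and, like the floor of 3 counts, hold for counting error alone: without molecular identifiers, reads are no independent molecules. TPM uses the deposited lengths. Alternatives were DESeq2 1.42.0, limma-voom (limma 3.58.1), other scalings, no filter, a replicate block and leaving out each library. Genes at 10 CPM or more in a library are given in every library, others by range, and fold changes mainly for those past the threshold. Further genes of the set were named after their values were seen. So were Krt8, Krt18, Krt19, Csn3, Msln, Wt1, Rgs5, Des, Cdh5, Emcn, Egfl7, Esam, Mbp, Sox10, Sulf1, Cd14, Cd68, Lyz2, C1qa, Errfi1 and Spred1. The same holds for Tie1 and Cldn5. The genes, lists and alternatives were chosen with earlier results of these data known.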

Additional observations from a re-analysis of the deposited data

Results flagged for a closer look

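The tests of whether the gate difference itself differs between depots called 13 results. By title, where SAT library 1 is taken as the CD26+ library, the CD26 change in SAT minus that in VAT was, on the log2 scale, 6.81 for Pdgfrl, 6.16 for Btc, 6.13 for Hgf, 4.50 for Vegfc, 4.09 for Fgfr2, 3.79 for Fgfrl1, 3.04 for Fgf10 and 2.85 for Fgf7. It was -6.43 for Fgf16, -4.86 for Fgf2, -4.23 for Pdgfc and -3.52 for Nrp2. By library name, where SAT library 2 is taken as the CD26+ library, it was -4.95 for Fgf1, which limma-voom did not call (adjusted p = 0.081186), and none of the 12 genes above passed. Dpp4 and F3 follow the library names in SAT and go against the titles.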

How the results depend on the processing

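Of 257 recomputed values of single genes, 239 kept their direction and their side of the threshold, or moved by less than the spread, 12 no longer passed, 6 moved (Erbb3, Fgf16, Fgf18 and Hgf without a VAT CD26-CD142+ library, values in the report) and 0 reversed. The 4-group fits without a VAT CD26-CD142+ library, or with the library number as a block, have no residual degrees of freedom and give values only. Lost calls not given in the report or for Fgf1 above follow here.

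In each pair of numbers that follows, the first counts all genes called and the last the genes of the 39. Over depots DESeq2 called 465 and 1, limma-voom 0 genes, no filter 70 genes, the replicate block 5 genes, and leaving out a library 0 to 17 genes. Leaving out any VAT library gave 0. For the VAT gate DESeq2 called 7 of the set, upper-quartile scaling 410 and 7, no filter 491 and 7, and leaving out SAT library 1 or 2 gave 356 to 383 genes with 5 to 7 of the set. For SAT library 1 against the VAT pair, DESeq2 called 3 of the set, limma-voom 0 (Erbb3 adjusted p = 0.080967), upper-quartile scaling 3, no filter 727 and 4, and leaving out a library 332 to 580 genes with 1 to 3 of the set. For SAT library 2 against that pair, limma-voom lost Hgf (adjusted p = 0.067613) and Fgf16 (0.064915), and Fgf16 was lost without the VAT CD26+CD142+ library (0.06772).

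For the CD26 gate by title, DESeq2 called 16 and 1, and leaving out a library 0 to 522 genes with 0 to 7 of the set: 383 and 7 without SAT library 1, 356 and 5 without SAT library 2, 522 and 5 without the VAT CD26+CD142+ library. By library name DESeq2 called 1338 and 16, no filter 775 and 13, and leaving out a VAT CD26-CD142+ library 138 to 2034 genes with 1 to 10 of the set. The largest counts, 2034 and 10, came without VAT CD26-CD142+ library 2. With the replicate block 0 genes and 0 of the set were called (Fgfr2 and Fgfrl1 adjusted p = 0.25537; 1592 genes at an unadjusted p under 0.05); the numbers are not said to pair the libraries. Between depots in the gate change, by title no filter called 1621 genes. By library name DESeq2 called 85 genes, limma-voom 10 genes and 0 of the set, upper-quartile scaling 136 genes and no filter 181 genes. The causes were not tested.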
